A study of Rattus norvegicus with 9 samples.

Results

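The injury response that remained in stimulated spinal cords was described by comparing the SCI + SCS group with the Sham group in bulk RNA-seq of rat spinal cord, which used 6 of the 9 libraries of the series. All genes that passed a filter on low counts entered the comparison, which gave 17640 genes of the 22777 that had at least 1 count. All rats were wild-type female Sprague-Dawley rats, 8 weeks old, and cord was taken at 35 days post-injury (dpi). The Sham group (3 libraries) is labelled as untreated and, by the study's methods, had a laminectomy without contusion. The SCI group (3 libraries) had a contusion at T10. The SCI + SCS group (3 libraries) had the same contusion and, from 1 dpi, epidural stimulation at 10 kHz and 0.12 mA for 2 h per day. By the study's methods the SCI + SCS rats carried an implanted electrode and the SCI rats carried only a plug, so contusion, electrode and stimulation cannot be told apart in the comparison with the Sham group, and a group with an electrode but no current was not analysed here. The methods also state that injured rats were kept in the study according to their pain thresholds. In bulk tissue, fewer cells of a type and less RNA per cell cannot be told apart. The labels name 1 batch and number the libraries within a group without naming the rats, so p-values measure only the spread between these libraries, which may be technical in part.

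A contused cord loses neurons, axons and oligodendrocytes at the lesion, and its debris, which is rich in myelin lipid, is taken up by resident microglia and by macrophages that enter from the blood. Astrocytes around the lesion become reactive and express intermediate filaments, while fibroblasts fill the core with collagen. Complement, interferon, chemokine and antigen presentation genes are known to be expressed by these cells for a long time after injury, and the genes of neurons, synapses and myelin are lost with the cells that express them.

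Library totals ranged from 62844376 to 88358570 counts, and 3 counts, the limit that a count of 0 allows, corresponded to 0.0341 to 0.0472 CPM (counts scaled to a common library size), for counting error only. Genes that define spinal cord tissue held 5.33% to 7.91% of the counts in the Sham group and 3.44% to 4.21% in the SCI + SCS group. Some libraries stood apart. Sham replicate 2 had 0.0522% of its counts in 19 marker genes of sensory ganglion neurons, against 0.00356% to 0.00886% in the other 8 libraries. Marker genes of meningeal fibroblasts held 0.106%, 0.512% and 1.09% of the counts in the 3 Sham libraries and 1.61%, 1.04% and 0.818% in the 3 SCI + SCS libraries. Skeletal muscle genes held 0.589% and 0.264% in SCI replicates 1 and 3 and 0.031% to 0.0421% elsewhere.

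A differentially expressed gene (DEG) had |log2FC| over 1 and a Benjamini-Hochberg adjusted p under 0.05 in the edgeR quasi-likelihood test, and every adjusted p given here comes from that test. Compared with the Sham group, the SCI + SCS group had 1108 upregulated genes (6.28% of those tested) and 960 downregulated genes (5.44%). At any fold, 2861 genes were higher and 2849 lower at an adjusted p under 0.05 (16.2% each), and the libraries of the groups did not overlap for 4795 genes upwards (27.2%) and 4584 downwards (26%). At an unadjusted p under 0.05, 23.1% of genes were higher and 23.1% lower. The SCI group, which was compared with the same Sham libraries, had 2385 upregulated and 2415 downregulated genes of 17822. The median |log2FC| over all genes was 0.42 for SCI + SCS against Sham and 0.62 for SCI against Sham. The 2 injured groups compared directly gave 1 upregulated gene (0.00566%) and 0 downregulated genes in edgeR among 17663, while 2348 genes (13.3%) were higher and 1926 (10.9%) lower at an unadjusted p under 0.05, and DESeq2 called 418 and 353. The 95% interval of that difference lay within 1.5-fold either way for 7494 genes (42.4%).

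The counts of DEGs depended on single libraries. Between 578 and 1582 genes were upregulated, and between 372 and 1309 downregulated, when 1 of the 6 libraries was left out, with the lowest counts without SCI + SCS replicate 1 (578 and 372) and Sham replicate 2 (629 and 414), and the highest without Sham replicate 3 (1582 and 1309). The distance between libraries, taken as 1 minus the correlation of log2 CPM over 18077 genes, averaged 0.0428 between SCI + SCS and Sham libraries, 0.0854 between SCI and Sham libraries and 0.0267 between the injured groups. Within groups it averaged 0.0107 for SCI + SCS, 0.0201 for SCI and 0.0200 for Sham. SCI + SCS replicate 1 was the farthest of its group from the Sham libraries (0.0534, against 0.0397 and 0.0354) and the nearest to the SCI libraries (0.0194, against 0.0305 and 0.0301).

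**Figure D1:**
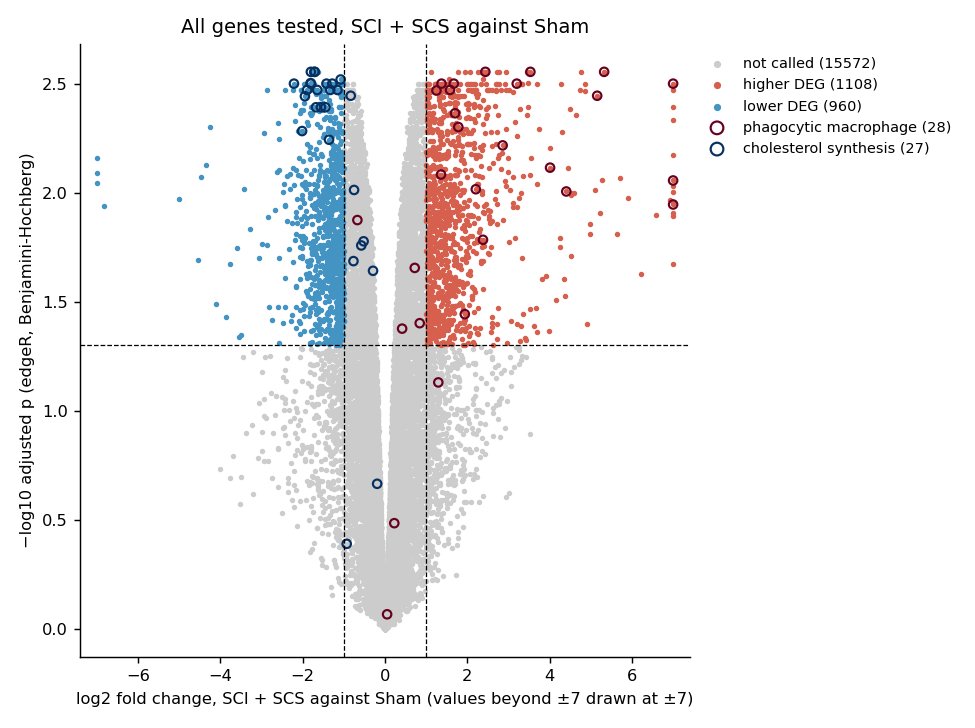
Each point is 1 of the 17640 genes, with its log2FC of SCI + SCS against Sham on the x axis (values beyond 7 either way are drawn at 7) and the negative log10 of its adjusted p on the y axis. Genes of the phagocytic macrophage list are circled in dark red, most of them on the right, where 21 of 28 were DEGs, and genes of the cholesterol synthesis list in dark blue, on the left, where 19 of 27 were.

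The injury response was read through 43 gene lists, of which 6 hold only markers of other tissues or of the cord itself. For each list the number of DEGs is set beside the share of all tested genes that were called, 6.28% upwards and 5.44% downwards, and beside the list's median log2FC, which over all genes was 0.01. The count of the direction with more calls is also given without each library whose removal moved it by over 1.5 times. Where the call of a named gene was lost without 1 library, the range of its log2FC over the 6 libraries left out in turn follows in brackets where its groups hold counts. The injury programs with the largest shares of upregulated genes were the phagocytic macrophage list (75%), the neutrophil and alarmin list (62.5%), the reactive astrocyte list (59.4%), the interferon response list (55.6%), the complement list (54.2%) and the lysosome list (52.4%). The largest shares of downregulated genes were in the cholesterol synthesis list (70.4%), the vesicle release list (64.3%) and the neuronal cytoskeleton list (58.1%).

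**Figure D2:**
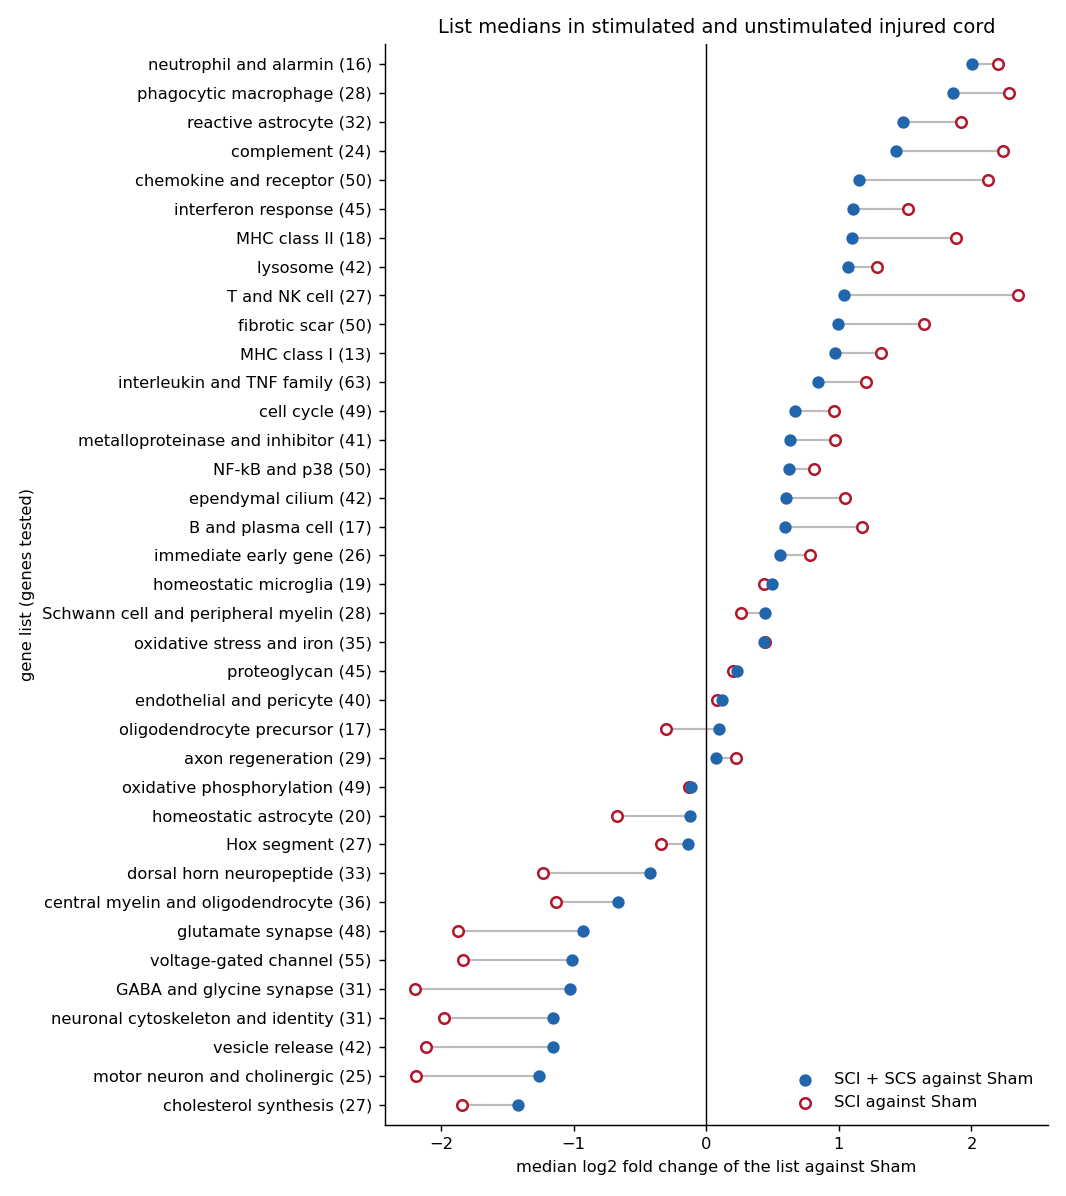
For each gene list, the median log2FC against Sham is plotted on the x axis for the SCI + SCS group and for the SCI group, which share the Sham libraries. The phagocytic macrophage list has medians of 1.86 and 2.29, and the cholesterol synthesis list medians of -1.42 and -1.84.

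The phagocytic macrophage program was among the most strongly raised in stimulated cords. It holds genes of macrophages and microglia that take up myelin debris, and 21 of its 28 tested genes were upregulated and 0 downregulated, with a median log2FC of 1.86. Gpnmb, a transmembrane glycoprotein of lipid-laden macrophages annotated at chr4:78010197-78049367 on the plus strand of mRatBN7.2, the build of all gene positions given here other than promoter windows, was at 8.73, 14.2 and 21.3 CPM in the Sham libraries and 557, 661 and 554 CPM in the SCI + SCS libraries. The groups did not overlap (log2FC 5.32, SE 0.36, adjusted p = 0.00278). The SCI libraries held 833, 1421 and 1026 CPM. Cd68, a lysosomal membrane protein used as a marker of phagocytes, was at 1.92, 4.07 and 8.5 CPM in the Sham libraries and 177, 168 and 174 CPM in the SCI + SCS libraries (log2FC 5.16, SE 0.54, adjusted p = 0.00357). Every SCI + SCS library was many times above every Sham library. Trem2, the lipid receptor of microglia, was at 9.2, 11 and 14.8 CPM in the Sham libraries and 125, 147 and 132 CPM in the SCI + SCS libraries, again without overlap (log2FC 3.53, SE 0.19, adjusted p = 0.00278). Lgals3, the lectin that binds damaged phagosomes, was at 14.3, 62.6 and 78.9 CPM in the Sham libraries and 746, 849 and 915 CPM in the SCI + SCS libraries (log2FC 4.01, SE 0.61, adjusted p = 0.00764).

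Some genes of this program had no count in any Sham library, and their fold is a lower bound set against 3 counts in each Sham library. Mmp12, the macrophage elastase, was at 0 in the Sham libraries, and the SCI + SCS group exceeded that limit by 106-fold or more (adjusted p = 0.00315). Atp6v0d2, a proton pump subunit of macrophages and osteoclasts, was at least 42.8-fold higher. Cd5l, a scavenger protein secreted by macrophages, was at least 10.5-fold higher. SCI + SCS replicate 1 was the highest of its group for Atp6v0d2 and Cd5l. At the lower end, the lipid-binding protein Fabp5 had a log2FC of 1.25 and the phagocytic receptor Axl of 1.36, and both passed. Spp1, the secreted phosphoprotein osteopontin, did not reach the fold (log2FC 0.85, adjusted p = 0.0395). The lipases Lipa (log2FC 0.42) and Lpl (log2FC 0.05) were not DEGs either. The count for the list lay between 19 and 21 with any 1 library left out, and its level per library, the mean over members of log2 CPM with the mean of the Sham group set to 0, was -0.31, 0.03 and 0.27 in the Sham libraries and 1.95, 2.02 and 1.87 in the SCI + SCS libraries.

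Lysosomal genes were also upregulated. In the lysosome list 22 of 42 tested genes were upregulated and 0 downregulated (median log2FC 1.07), a count that lay between 17 and 25 with any 1 library left out. Ctsb, a cysteine protease of the lysosome, was at 473, 643 and 547 CPM in the Sham libraries and 1644, 1710 and 1483 CPM in the SCI + SCS libraries, and the groups did not overlap (log2FC 1.54, SE 0.14, adjusted p = 0.00317). Other proteases of the list passed as well, among them Ctsd (log2FC 1.56), Ctss (log2FC 1.5) and Ctsk (log2FC 2.31), and so did Hexa, which breaks down gangliosides (log2FC 1.71). The Ctsk call was lost without Sham replicate 2 or SCI + SCS replicate 1 (log2FC 1.93 to 2.79). The structural membrane protein Lamp1 was not a DEG (log2FC 0.26, adjusted p = 0.0956), nor was Psap, the precursor of the saposins (log2FC 0.01). The list of homeostatic microglia, which holds genes of surveying cells, had 6 of 19 upregulated and 0 downregulated, with 3 upregulated without Sham replicate 2. Csf1r, the receptor that microglia need to survive, was at 94.5, 120 and 157 CPM in the Sham libraries and 321, 418 and 302 CPM in the SCI + SCS libraries (log2FC 1.49, SE 0.22, adjusted p = 0.00663). In contrast, P2ry12, the purinergic receptor of surveying microglia, was at 30.4, 23.8 and 32 CPM in the Sham libraries and 30.2, 35.4 and 29.8 CPM in the SCI + SCS libraries, a log2FC of 0.15 that did not pass (adjusted p = 0.431). Tmem119 did not pass either (log2FC 0.50, adjusted p = 0.105). Aif1, which encodes the microglial protein Iba1 that the study stained, was at 16.3, 21.6 and 37.4 CPM in the Sham libraries and 105, 116 and 97.6 CPM in the SCI + SCS libraries (log2FC 2.08, SE 0.30, adjusted p = 0.00663).

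Complement genes were higher in stimulated cords, with 13 of 24 tested genes upregulated, 0 downregulated and a median log2FC of 1.43. The first component of the classical pathway was upregulated. C1qa, a chain of the recognition molecule, was at 58.1, 94.1 and 115 CPM in the Sham libraries and 516, 571 and 539 CPM in the SCI + SCS libraries (log2FC 2.61, SE 0.25, adjusted p = 0.00336), and C1qb, its partner chain, had a log2FC of 2.47 (SE 0.30, adjusted p = 0.00438). Itgb2, the integrin chain shared by the complement receptors of phagocytes, was at 12.3, 10.9 and 15.6 CPM in the Sham libraries and 39.5, 56.2 and 41.1 CPM in the SCI + SCS libraries (log2FC 1.82, SE 0.19, adjusted p = 0.0036). C3, which all pathways cleave, was at 66.5, 80.3 and 131 CPM in the Sham libraries and 123, 205 and 137 CPM in the SCI + SCS libraries, and its log2FC of 0.74 did not pass (adjusted p = 0.10). Cfb, of the alternative pathway, was upregulated (log2FC 2.16), as were the proteases C1r (log2FC 1.5) and C1s (log2FC 1.36). The Cfb call was lost without Sham replicate 2 or SCI + SCS replicate 1 (log2FC 1.84 to 2.76), the C1r call without Sham replicate 2 or SCI + SCS replicate 1, 2 or 3 (log2FC 1.21 to 1.88) and the C1s call without Sham replicate 2 or SCI + SCS replicate 1, 2 or 3 (log2FC 1.05 to 1.85). Clu, a soluble inhibitor of the terminal complex, was upregulated (log2FC 1.24), a call lost without Sham replicate 2 or SCI + SCS replicate 1 or 2 (log2FC 1.03 to 1.60). The count for the list fell to 4 without Sham replicate 2 or SCI + SCS replicate 1.

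Antigen presentation was raised in part. In the MHC class II list 8 of 18 genes were upregulated and 0 downregulated. These were mainly genes of peptide loading and costimulation. Ifi30, a thiol reductase of the antigen compartment, was at 20.4, 22.8 and 33.1 CPM in the Sham libraries and 131, 139 and 114 CPM in the SCI + SCS libraries (log2FC 2.33, SE 0.20, adjusted p = 0.00315). Cd86, a costimulatory ligand for T cells, was at 1.64, 2.24 and 3.46 CPM in the Sham libraries and 12.1, 14 and 13.8 CPM in the SCI + SCS libraries (log2FC 2.44, SE 0.28, adjusted p = 0.0041). RT1-DMa, which exchanges peptides on class II molecules, rose by a log2FC of 1.43 (adjusted p = 0.00338). The presenting molecules themselves did not pass. RT1-Da, a class II alpha chain, was at 3.55, 30.3 and 68.6 CPM in the Sham libraries and 44.6, 37.7 and 66 CPM in the SCI + SCS libraries, with overlapping groups (log2FC 0.54, adjusted p = 0.652), and Cd74, the invariant chain, had a log2FC of 0.60 (adjusted p = 0.566). In the MHC class I list 5 of 13 genes were upregulated, including the peptide transporter Tap1 (log2FC 1.37, SE 0.22, adjusted p = 0.00857) and the immunoproteasome subunits Psmb8 (log2FC 1.5) and Psmb9 (log2FC 1.78), while the light chain B2m was under the fold (log2FC 0.97, adjusted p = 0.00672). The Psmb8 call was lost without Sham replicate 1 or 2 or SCI + SCS replicate 1 or 3 (log2FC 1.30 to 1.96) and the Psmb9 call without Sham replicate 2 or SCI + SCS replicate 1 or 3 (log2FC 1.49 to 2.35). RT1 genes are near-identical copies, so reads may have been split among them. Upregulated class II genes numbered 5 without Sham replicate 2, and class I genes 3 without Sham replicate 2 or SCI + SCS replicate 1 or 3.

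Interferon response genes were upregulated in 25 of 45 tested members and downregulated in 1, with a median log2FC of 1.11. Ifitm1, a membrane protein that restricts viral entry, was at 1.67, 4.54 and 6.17 CPM in the Sham libraries and 128, 79.5 and 71.2 CPM in the SCI + SCS libraries (log2FC 4.49, SE 0.52, adjusted p = 0.0041). Irf7, the transcription factor that amplifies interferon production, was at 9.89, 7.18 and 17.9 CPM in the Sham libraries and 38.6, 22.1 and 46.3 CPM in the SCI + SCS libraries. The groups did not overlap, but the call (log2FC 1.61, adjusted p = 0.0271) was lost without Sham replicate 1 or 2 or SCI + SCS replicate 1 or 3 (log2FC 1.36 to 2.07). The downregulated member was Ifit1, an RNA-binding antiviral protein, at 3.27, 2.68 and 8.21 CPM in the Sham libraries and 0.407, 0.156 and 0.125 CPM in the SCI + SCS libraries (log2FC -4.34, SE 0.66, adjusted p = 0.00742). Its call held with any 1 library left out and was lost with all 9 libraries in 1 fit (log2FC -4.35, adjusted p = 0.0558). Its SCI libraries held 8.72, 0.17 and 0.173 CPM. Its relative Ifit3 was upregulated (log2FC 1.08), a call lost without any 1 library other than Sham replicate 1 (log2FC 0.87 to 1.39). The number of upregulated genes was 8 without Sham replicate 2 or SCI + SCS replicate 1 and 16 without SCI + SCS replicate 3.

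Interferon-responsive promoters often carry a core element, GAAA-NN-GAAA, that interferon regulatory factors and STAT complexes bind. It was searched on both strands in the 250 bases before the start of each gene in RefSeq promoters of the GRCr8 build, where 34 of the 45 tested interferon genes were matched. The element was found in 22 of the 34 (64.7%), in 15 of 20 matched DEGs of the list (75%) and in 1140 of all 33469 promoters (3.41%). A match describes the letters and does not show that a factor binds. The following windows are shown because they belong to upregulated members that hold the element, with the element in capitals and each sequence written 5′ to 3′ along its gene. On the opposite strand the element reads TTTC-NN-TTTC. The Bst2 window holds a further, overlapping match that runs into the lower case letters.
Ifitm3, chr1:205541773-205541822, minus strand: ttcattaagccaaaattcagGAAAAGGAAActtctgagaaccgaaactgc
Bst2, chr16:18255069-18255118, minus strand: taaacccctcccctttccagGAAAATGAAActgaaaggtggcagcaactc
Igtp, chr10:42874924-42874973, plus strand: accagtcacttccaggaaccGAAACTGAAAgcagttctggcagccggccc
Gbp2, chr2:234005676-234005725, plus strand: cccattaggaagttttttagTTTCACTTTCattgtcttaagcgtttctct
Irf7, chr1:205800063-205800112, minus strand: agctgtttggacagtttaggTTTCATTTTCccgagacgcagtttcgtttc
Ifit3, chr1:241527262-241527311, plus strand: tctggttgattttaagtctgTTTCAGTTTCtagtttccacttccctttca
Ifitm3, an antiviral membrane protein, had a log2FC of 2.38. Bst2, which tethers virus particles to the cell, had a log2FC of 1.58, Igtp, an immunity GTPase, of 1.53, and Gbp2, a guanylate-binding protein, of 1.69. The Bst2 call was lost without Sham replicate 2 or SCI + SCS replicate 1 (log2FC 1.39 to 1.93) and the Gbp2 call without Sham replicate 2 or SCI + SCS replicate 1 or 3 (log2FC 1.4 to 2.2).

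Chemokines and their receptors were upregulated in 17 of 50 tested genes, with 0 downregulated and a median log2FC of 1.15. Cxcl14, a chemokine of epithelia and glia at chr17:8317933-8324839 on the plus strand, was at 26.7, 22.3 and 20.9 CPM in the Sham libraries and 208, 265 and 297 CPM in the SCI + SCS libraries (log2FC 3.46, SE 0.17, adjusted p = 0.00278). Its SCI libraries held 283, 231 and 189 CPM, and the difference between the injured groups had a 95% interval of -0.30 to 0.58 on the log2 scale. Ccl9, which attracts myeloid cells, had a log2FC of 5.21 (adjusted p = 0.0124), and Ccl7, a ligand of Ccr2, of 1.46 (adjusted p = 0.0171). Cxcl10, the interferon-induced ligand that the study followed, was at 0.928, 2.1 and 3.94 CPM in the Sham libraries and 10.6, 7.48 and 9.51 CPM in the SCI + SCS libraries. The groups did not overlap (log2FC 1.98, SE 0.49, adjusted p = 0.0259), and the call was lost without Sham replicate 2 or SCI + SCS replicate 1, 2 or 3 (log2FC 1.61 to 2.59). Cxcr3, its receptor on T cells, was at 0.126, 0.227 and 0.492 CPM in the Sham libraries and 0.617, 0.525 and 0.878 CPM in the SCI + SCS libraries, and its log2FC of 1.24 did not pass (adjusted p = 0.119). Ccl2, which recruits monocytes, did not pass (log2FC 1.62, adjusted p = 0.0621). The count was 11 without Sham replicate 2 and 10 without SCI + SCS replicate 1.

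A kappaB element, searched as GGG-NN-TTTCC on both strands, was found in 6 of 37 matched chemokine promoters (16.2%), in 2 of 13 matched DEGs and in 435 of all 33469 promoters (1.3%). The promoter of Cxcl1, a neutrophil chemokine that was upregulated (log2FC 2.56, adjusted p = 0.0137) with a call lost without Sham replicate 2 (log2FC 2.07 to 2.97), is shown as an upregulated member that holds it, with the element in capitals and the same build. The window also holds a further match on the opposite strand, left in lower case.
Cxcl1, chr14:17479376-17479425, minus strand: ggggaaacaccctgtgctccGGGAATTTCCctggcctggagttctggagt

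Inflammatory signalling was raised in fewer members. In the interleukin and TNF list 16 of 63 genes were upregulated and 0 downregulated, and in the NF-kB and p38 list 11 of 50, also with 0 downregulated. Tnfsf13b, the B cell survival factor BAFF, was at 1.78, 1.59 and 3.07 CPM in the Sham libraries and 6.88, 7.08 and 7.32 CPM in the SCI + SCS libraries (log2FC 1.73, SE 0.27, adjusted p = 0.00827). Bcl2a1, an antiapoptotic target of NF-kB, was at 1.84, 1.78 and 3.03 CPM in the Sham libraries and 24.6, 20.7 and 18.3 CPM in the SCI + SCS libraries (log2FC 3.25, SE 0.26, adjusted p = 0.00315). The genes of several proteins that the study measured were not DEGs. For Il1b and Tnf the study measured protein at an earlier time. For p65 and p38 it measured phosphorylation relative to total protein. The RNA values here are another measure and were not set against those results. Il1b, an inflammasome product, was at 0.204, 0.227 and 0.629 CPM in the Sham libraries and 0.758, 0.497 and 0.439 CPM in the SCI + SCS libraries, with overlapping groups (log2FC 0.67, adjusted p = 0.359). Tnf had a log2FC of 1.03 (adjusted p = 0.183). Rela, the p65 subunit of NF-kB, was higher by less than the fold (log2FC 0.74, adjusted p = 0.0127), as was Mapk14, which encodes p38 alpha (log2FC 0.29, adjusted p = 0.0293). The interleukin count was 10 without SCI + SCS replicate 1, and the NF-kB count 4 without Sham replicate 2, 17 without Sham replicate 3, 6 without SCI + SCS replicate 1 and 5 without SCI + SCS replicate 2.

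**Figure D3:**
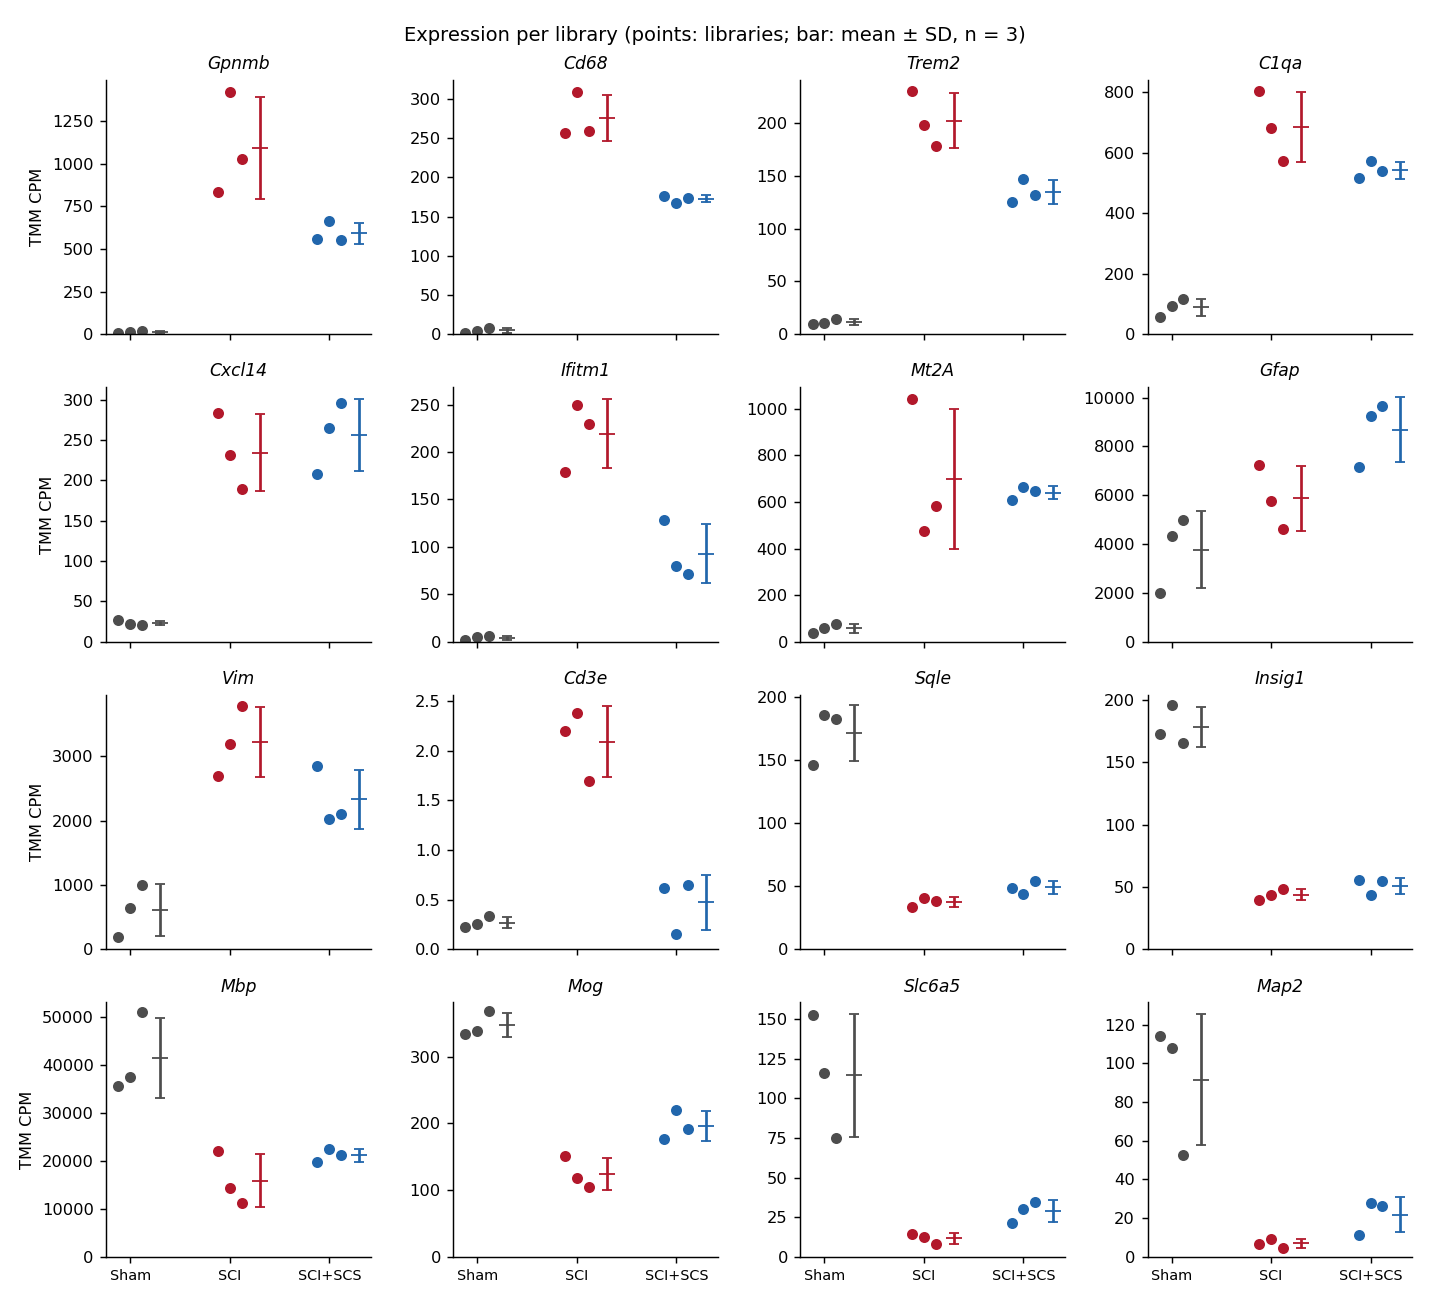
Each panel shows 1 gene and each point 1 library, with TMM-scaled CPM on a linear y axis that starts at 0, the groups Sham, SCI and SCI + SCS on the x axis, and a bar for the mean ± SD of each group (n = 3). Gpnmb, Cd68, Trem2 and C1qa lie far above the Sham libraries in every SCI + SCS library, Cd3e overlaps, and Sqle, Insig1 and Slc6a5 lie below.

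Lymphocyte genes differed by member. In the list of T and NK cell genes 4 of 27 tested genes were upregulated (Cd8a, Cd8b, Cd6 and Cd4), whereas in the SCI group 21 were. Cd8a, a chain of the CD8 coreceptor, was at 0.204, 0.25 and 0.366 CPM in the Sham libraries and 6.34, 6.46 and 11.3 CPM in the SCI + SCS libraries (log2FC 4.86, SE 0.37, adjusted p = 0.00315). Which cells expressed Cd8a was not tested, and Cd3e did not rise with it in every library. Cd3e, a chain of the T cell receptor complex, was at 0.22, 0.25 and 0.332 CPM in the Sham libraries and 0.617, 0.156 and 0.643 CPM in the SCI + SCS libraries. SCI + SCS replicate 2 lay below the Sham range and the other SCI + SCS libraries above it (log2FC 0.81, adjusted p = 0.30), and the SCI libraries held 2.2, 2.38 and 1.69 CPM. Cd4 is also expressed by rat macrophages, and its call (log2FC 1.65) was lost without Sham replicate 2 or SCI + SCS replicate 1 or 2 (log2FC 1.37 to 2.10). The Cd6 call was lost without Sham replicate 2 or SCI + SCS replicate 1 (log2FC 1.68 to 2.49) and the Cd8b call without SCI + SCS replicate 1. T and NK cell calls numbered 2 without Sham replicate 2, 8 without Sham replicate 3 and 1 without SCI + SCS replicate 1. Of 17 B and plasma cell genes 5 were upregulated, among them Cd79a, a chain of the B cell receptor, at 0.157, 0.17 and 0.217 CPM in the Sham libraries and 0.996, 0.596 and 0.674 CPM in the SCI + SCS libraries (log2FC 2.04, SE 0.36, adjusted p = 0.0108), and Cd22, an inhibitory receptor (log2FC 2.59, adjusted p = 0.00609). Jchain, of plasma cells, had a log2FC of 0.04 (adjusted p = 0.933). The B cell calls numbered 3 without Sham replicate 1 or SCI + SCS replicate 2 or 3 and 2 without Sham replicate 2 or SCI + SCS replicate 1.

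Neutrophil and alarmin genes were upregulated in 10 of 16 tested members (median log2FC 2.0). S100a8, which forms the alarmin calprotectin with S100a9, was at 0.267, 0.625 and 0.618 CPM in the Sham libraries and 3.52, 6.02 and 2.24 CPM in the SCI + SCS libraries (log2FC 2.95, SE 0.49, adjusted p = 0.00928). The SCI libraries held 4.71, 2.88 and 2.37 CPM. Cxcr1, a receptor for neutrophil chemokines, had no count in the Sham libraries and was at least 27.4-fold higher (adjusted p = 0.00464). Lcn2, a siderophore-binding protein of neutrophils and astrocytes, had a log2FC of 2.13 (adjusted p = 0.00315). Mpo, the granule peroxidase that defines neutrophils, did not pass (log2FC 2.10, adjusted p = 0.12). Erythrocyte markers held 0.00178% to 0.00816% of the counts in the Sham group and 0.00701% to 0.0127% in the SCI + SCS group, with 2 of 9 upregulated (0 without Sham replicate 1 or 2 or SCI + SCS replicate 1, 2 or 3 and 5 without Sham replicate 3), and the part of blood in these values was not tested. The count of neutrophil and alarmin genes was 4 without Sham replicate 2, 5 without SCI + SCS replicate 1 and 6 without SCI + SCS replicate 2 or 3.

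Reactive astrocyte genes were upregulated in 19 of 32 tested members with 0 downregulated (median log2FC 1.48). Gfap, the astrocyte intermediate filament, was at 1991, 4345 and 4980.3 CPM in the Sham libraries and 7155, 9228 and 9661 CPM in the SCI + SCS libraries (log2FC 1.21, SE 0.35, adjusted p = 0.0396), and its SCI libraries held 7253, 5759.7 and 4614 CPM. SCI + SCS replicates 2 and 3 were the highest of the 9 libraries, and the call was lost without any 1 library other than Sham replicate 3 (log2FC 0.90 to 1.46). Vim, a second filament of reactive cells, had a log2FC of 1.93 (adjusted p = 0.0381), lost without Sham replicate 2 or SCI + SCS replicate 1, 2 or 3 (log2FC 1.5 to 2.47). Ptx3, a secreted pentraxin, was at 0.456, 0.432 and 0.515 CPM in the Sham libraries and 2.43, 3.33 and 4.18 CPM in the SCI + SCS libraries (log2FC 2.82, SE 0.28, adjusted p = 0.00336). Timp1, the inhibitor of metalloproteinases, was at 8.32, 18.2 and 26 CPM in the Sham libraries and 141, 111 and 105 CPM in the SCI + SCS libraries (log2FC 2.77, SE 0.40, adjusted p = 0.00672). The calls of Ptx3 and Timp1 held with any 1 library left out. Of the genes of resting astrocytes, 3 of 20 were downregulated and 0 upregulated, and the downregulated numbered 1 without Sham replicate 2 or SCI + SCS replicate 1 or 3 and 5 without Sham replicate 3. Kcnj10, the potassium channel that buffers extracellular potassium, was at 531, 509 and 521 CPM in the Sham libraries and 191, 271 and 261 CPM in the SCI + SCS libraries (log2FC -1.11, SE 0.14, adjusted p = 0.00519), a call lost without SCI + SCS replicate 1 (log2FC -1.21 to -0.96). Aqp4, the water channel of astrocyte endfeet, was at 1091, 1442 and 1644 CPM in the Sham libraries and 1243, 1654 and 1441 CPM in the SCI + SCS libraries (log2FC 0.06, adjusted p = 0.826), and the glutamate transporter Slc1a2 was lower by less than the fold (log2FC -0.93, adjusted p = 0.0234). The count of upregulated reactive astrocyte genes was 8 without Sham replicate 2, 7 without SCI + SCS replicate 1 and 12 without SCI + SCS replicate 2 or 3.

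Genes of oxidative stress and metal handling were upregulated in 14 of 35 members, with 0 downregulated. Mt2A, a metallothionein that binds zinc, was at 38.4, 60.3 and 75.4 CPM in the Sham libraries and 608, 664 and 646 CPM in the SCI + SCS libraries (log2FC 3.46, SE 0.25, adjusted p = 0.00313). Mt1, its neighbour in the family, had a log2FC of 3.46 (adjusted p = 0.00439). The SCI libraries held 1042, 477 and 582 CPM of Mt2A. Hmox1, which degrades haem, was at 15.1, 17.4 and 18.2 CPM in the Sham libraries and 60.3, 76 and 60.2 CPM in the SCI + SCS libraries (log2FC 1.96, SE 0.13, adjusted p = 0.00278). Subunits of the phagocyte NADPH oxidase rose, among them Ncf1 (log2FC 2.39) and Cyba (log2FC 2.67), while the catalytic subunit Cybb did not pass (log2FC 1.12, adjusted p = 0.0992). Antioxidant enzymes differed by member. Sod1 (log2FC 0.07) and Cat (log2FC -0.32) and the regulator Nfe2l2 (log2FC 0.36) were not DEGs, while Gpx1, Gpx3 and Sod3 were upregulated. The Gpx1 call was lost without Sham replicate 1 or SCI + SCS replicate 1 (log2FC 0.96 to 1.11) and the Gpx3 call without Sham replicate 2 (log2FC 1.01 to 1.52). The Sod3 call was lost without Sham replicate 1 or SCI + SCS replicate 1 (log2FC 0.88 to 1.13) and in DESeq2. The count was 9 without Sham replicate 2 and 8 without SCI + SCS replicate 1.

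The fibrotic scar was raised in level but called in few genes. Of 50 genes 8 were upregulated and 0 downregulated, with a median log2FC of 0.99, whereas 37 were upregulated in the SCI group (median 1.64). Col1a1, the main chain of fibrillar collagen, was at 79.3, 266 and 425 CPM in the Sham libraries and 726, 436 and 526 CPM in the SCI + SCS libraries. The groups did not overlap, but the Sham libraries spread widely and the difference did not pass (log2FC 1.13, adjusted p = 0.156). Fn1, fibronectin, had a log2FC of 1.04 (adjusted p = 0.103). S100a4, a calcium-binding protein of fibroblasts and macrophages, was at 13.1, 28.5 and 36.2 CPM in the Sham libraries and 275, 359 and 229 CPM in the SCI + SCS libraries (log2FC 3.47, SE 0.40, adjusted p = 0.00404). Tgfb1, the growth factor that drives matrix deposition, had a log2FC of 1.86 (adjusted p = 0.00672). The level of the list was -0.93, 0.20 and 0.74 in the Sham libraries and 1.54, 1.05 and 1.07 in the SCI + SCS libraries, and that of the meningeal fibroblast list -1.38, 0.26 and 1.11 in the Sham libraries and 1.64, 0.87 and 0.89 in the SCI + SCS libraries. Of the 20 tested meningeal markers 0 were upregulated (3 without Sham replicate 3) and none of the defining ones was at 0, with Slc47a1, a transporter of meningeal fibroblasts, at 0.613, 9.83 and 31.9 CPM in the Sham libraries and 61.9, 27.8 and 20.7 CPM in the SCI + SCS libraries. The part of meninges in the scar values was not tested. The count of scar genes was 4 without Sham replicate 2, 27 without Sham replicate 3 and 5 without SCI + SCS replicate 1, and DESeq2 called 15.

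In the proteoglycan list 1 gene was upregulated and 7 of 45 were downregulated. The upregulated gene was the syndecan Sdc4 (log2FC 1.26, SE 0.11, adjusted p = 0.00317). The downregulated genes included components of perineuronal nets, the matrix around neurons. Tnr, tenascin-R, was at 6.46, 7.68 and 5.38 CPM in the Sham libraries and 0.73, 2.33 and 1.39 CPM in the SCI + SCS libraries (log2FC -2.13, SE 0.42, adjusted p = 0.0137), a call lost without Sham replicate 2 (log2FC -2.62 to -1.80). Acan, aggrecan, was called as well, and its call was lost without any 1 library other than Sham replicate 3 (log2FC -1.78 to -1.26). Hapln1, a link protein, had a log2FC of -2.15 (adjusted p = 0.0128) and a call lost without SCI + SCS replicate 1 or 2 (log2FC -2.50 to -1.88). The inhibitory proteoglycans Vcan (log2FC -0.11) and Cspg4 (log2FC 0.29) were not DEGs. Of 41 metalloproteinases and inhibitors 9 were upregulated. They included Mmp7, matrilysin, which had no count in the Sham libraries and was at least 28.6-fold higher (adjusted p = 0.0109). Mmp2, a gelatinase of fibroblasts, did not pass (log2FC 0.90, adjusted p = 0.131). Downregulated proteoglycan genes numbered 2 without Sham replicate 1 or 2 or SCI + SCS replicate 2, 1 without SCI + SCS replicate 1 and 4 without SCI + SCS replicate 3, and upregulated metalloproteinase genes 4 without Sham replicate 2 or SCI + SCS replicate 1 and 5 without SCI + SCS replicate 2 or 3.

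Cholesterol synthesis had the largest share of downregulated genes of the 37 program lists, with 19 of 27 genes downregulated, 0 upregulated and a median log2FC of -1.42. The same 19 genes were called with any 1 library left out. Sqle, squalene epoxidase, at chr7:90868011-90883618 on the plus strand, was at 146, 186 and 182 CPM in the Sham libraries and 48.8, 43.7 and 54.3 CPM in the SCI + SCS libraries (log2FC -1.81, SE 0.13, adjusted p = 0.00313), and the SCI libraries held 33.5, 40.7 and 38 CPM. The gene was lower in every SCI + SCS library than in any Sham library. Insig1, the sterol sensor that holds back the pathway's activator, was at 173, 196 and 166 CPM in the Sham libraries and 55.3, 43.7 and 54.5 CPM in the SCI + SCS libraries (log2FC -1.80, SE 0.12, adjusted p = 0.00278). Its SCI libraries held 39.3, 43.8 and 48.2 CPM, and the interval of the difference between the injured groups was -0.06 to 0.53 on the log2 scale. Hsd17b7, which reduces a keto group of sterol intermediates, had the lowest log2FC of the list (log2FC -2.21, SE 0.19, adjusted p = 0.00315). Srebf2, the transcription factor of the pathway, was lower by less than the fold (log2FC -0.83, adjusted p = 0.00358), and Ebp, a sterol isomerase, did not pass (log2FC -0.19). Scd, a fatty acid desaturase outside the list, was at 116, 207 and 233 CPM in the Sham libraries and 23.2, 25 and 28.3 CPM in the SCI + SCS libraries (log2FC -2.86, SE 0.27, adjusted p = 0.00336). The list's level was -0.19, 0.11 and 0.08 in the Sham libraries and -1.26, -1.41 and -1.16 in the SCI + SCS libraries. A sterol regulatory element, searched as TCAC-N-CCAC on both strands, was found in 0 of 19 matched promoters of the list and in 0.974% of all promoters, which says only that these letters are not in the windows searched.

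Myelin genes were lower, and fewer passed the fold. In the list of central myelin and oligodendrocyte genes 8 of 36 were downregulated and 0 upregulated (median log2FC -0.67), and 21 were downregulated in the SCI group (median -1.13). Mbp, myelin basic protein, was at 35697, 37608 and 51070 CPM in the Sham libraries and 19788, 22406 and 21328 CPM in the SCI + SCS libraries. The groups did not overlap, and the difference was just under the fold (log2FC -0.97, SE 0.21, adjusted p = 0.0184). Mog, on the outer myelin surface, was also under it (log2FC -0.82, adjusted p = 0.00509). Tmem88b, an oligodendrocyte membrane protein, had the lowest log2FC of the list (log2FC -1.51, SE 0.17, adjusted p = 0.00385). The lineage factors Olig2 (log2FC -0.62) and Sox10 (log2FC 0.13) were not DEGs, nor was Pdgfra, the receptor of precursors (log2FC 0.44, adjusted p = 0.278). The count was 5 without Sham replicate 3. Of 28 Schwann cell genes 1 was upregulated and 1 downregulated, and the upregulated numbered 3 without Sham replicate 2 or SCI + SCS replicate 2 and 2 without Sham replicate 3. DESeq2 called 4 upregulated Schwann cell genes. Fabp7, a fatty acid binding protein of immature glia, was upregulated (log2FC 1.66, SE 0.29, adjusted p = 0.0103).

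Genes were downregulated, and 0 upregulated, in the lists of neuronal cytoskeleton, motor neurons, inhibitory synapses, glutamate synapses, vesicle release and voltage-gated channels. In the neuronal cytoskeleton list 18 of 31 were downregulated (median log2FC -1.15, against -1.98 in the SCI group). Kif5c, a kinesin of axonal transport, was at 67.3, 61.3 and 41.8 CPM in the Sham libraries and 9.74, 13.8 and 12.4 CPM in the SCI + SCS libraries (log2FC -2.24, SE 0.22, adjusted p = 0.00336). Map2, a dendritic microtubule protein, was at 114, 108 and 52.6 CPM in the Sham libraries and 11.4, 27.8 and 26.1 CPM in the SCI + SCS libraries (log2FC -2.07, SE 0.43, adjusted p = 0.0158), a call lost without Sham replicate 2 (log2FC -2.35 to -1.76). Nefh, the heavy neurofilament chain, was at 1997, 1166 and 798 CPM in the Sham libraries and 459, 497 and 760.2 CPM in the SCI + SCS libraries and its call (log2FC -1.21, adjusted p = 0.0461) was lost without any 1 library other than Sham replicate 3 (log2FC -1.47 to -0.78). Tubb3, the neuronal tubulin that the study stained, did not pass (log2FC -0.86, adjusted p = 0.0652), nor did Gap43, a growth cone protein (log2FC -0.16). The level of the list was 0.41, 0.05 and -0.46 in the Sham libraries and -1.44, -1.17 and -0.87 in the SCI + SCS libraries, so that Sham replicate 3 was the lowest Sham library and SCI + SCS replicate 1 the lowest of all 6. The count was 10 without Sham replicate 1, 8 without Sham replicate 2, 6 without SCI + SCS replicate 1 and 9 without SCI + SCS replicate 2.

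Inhibitory synapse genes were downregulated in 12 of 31 (median log2FC -1.03). Slc6a5, the glycine transporter of inhibitory neurons, at chr1:99645389-99697010 on the plus strand, was at 153, 116 and 75.2 CPM in the Sham libraries and 21.3, 30.4 and 34.9 CPM in the SCI + SCS libraries (log2FC -1.99, SE 0.30, adjusted p = 0.00713). Gad2, which makes GABA, was at 5.58, 5.16 and 2.31 CPM in the Sham libraries and 0.575, 1.7 and 1.43 CPM in the SCI + SCS libraries, and its call (log2FC -1.81, adjusted p = 0.0352) was lost without any 1 library other than Sham replicate 3 (log2FC -2.12 to -1.47). Gad1, its partner enzyme, did not pass (log2FC -0.81, adjusted p = 0.0535). In the glutamate list 15 of 48 were downregulated. Slc17a6, the vesicular glutamate transporter of spinal neurons, was at 159, 132 and 96.6 CPM in the Sham libraries and 45.3, 54.3 and 67.1 CPM in the SCI + SCS libraries (log2FC -1.22, SE 0.22, adjusted p = 0.0112), while Grin1, the obligatory NMDA receptor subunit, was just under the fold (log2FC -0.99, adjusted p = 0.0438). Motor neuron and cholinergic genes were downregulated in 8 of 25. Chat, the enzyme that makes acetylcholine, was at 34.3, 11.9 and 11.7 CPM in the Sham libraries and 5.56, 7.11 and 8.57 CPM in the SCI + SCS libraries and did not pass (log2FC -1.44, adjusted p = 0.0529), whereas the choline transporter Slc5a7 did (log2FC -2.02, adjusted p = 0.0178), a call lost without SCI + SCS replicate 1 or 2 (log2FC -2.28 to -1.43). Inhibitory synapse calls numbered 7 without Sham replicate 1, 6 without Sham replicate 2 or SCI + SCS replicate 2, 19 without Sham replicate 3 and 4 without SCI + SCS replicate 1. Glutamate synapse calls numbered 6 without Sham replicate 2, 8 without SCI + SCS replicate 1 and 9 without SCI + SCS replicate 2. Motor neuron calls numbered 3 without Sham replicate 1, 1 without Sham replicate 2 or SCI + SCS replicate 1, 14 without Sham replicate 3 and 0 without SCI + SCS replicate 2, and DESeq2 called 14.

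Of the vesicle release genes 27 of 42 were downregulated. Rph3a, which binds Rab3 on synaptic vesicles, was at 119, 113 and 50.2 CPM in the Sham libraries and 9.63, 21.2 and 21.8 CPM in the SCI + SCS libraries (log2FC -2.42, SE 0.44, adjusted p = 0.0113). Syt1, the calcium sensor of release, had a log2FC of -1.61 (adjusted p = 0.0426), a call lost without any 1 library other than Sham replicate 3 (log2FC -1.91 to -1.27). Of the voltage-gated channels 20 of 55 were downregulated. Kcna1, a potassium channel beside the nodes of axons, was at 368, 331 and 227 CPM in the Sham libraries and 128, 126 and 156 CPM in the SCI + SCS libraries (log2FC -1.17, SE 0.19, adjusted p = 0.00901). Kcnab2, its accessory subunit, had a log2FC of -2.26 (adjusted p = 0.0137), and Scn8a, the sodium channel of nodes, of -2.19 (adjusted p = 0.0164). The Scn8a call was lost without Sham replicate 2 or SCI + SCS replicate 1 (log2FC -2.52 to -1.84). Vesicle release calls numbered 11 without Sham replicate 1, 10 without Sham replicate 2, 5 without SCI + SCS replicate 1, 7 without SCI + SCS replicate 2 and 17 without SCI + SCS replicate 3. Channel calls numbered 3 without Sham replicate 2, 7 without SCI + SCS replicate 1 and 9 without SCI + SCS replicate 2. Dorsal horn neuropeptides and their receptors had 3 of 33 downregulated and 1 upregulated, against 21 downregulated in the SCI group. The tachykinin Tac1 (log2FC -0.91, adjusted p = 0.0426) and the enkephalin precursor Penk (log2FC -0.39, adjusted p = 0.188) were not DEGs, and Tacr1, the substance P receptor, was (log2FC -1.59, adjusted p = 0.0303), a call lost without any 1 library other than Sham replicate 3 (log2FC -1.88 to -1.12). The count of lowered neuropeptide genes was 1 without Sham replicate 1, 0 without Sham replicate 2 or SCI + SCS replicate 1, 2 or 3 and 7 without Sham replicate 3. Sensory ganglion markers were high in Sham replicate 2 alone, with Scn10a, a sodium channel of nociceptors, at 0.157, 55.4 and 0.847 CPM in the Sham libraries and 0.0982, 0.709 and 3.37 CPM in the SCI + SCS libraries, and 0 of 15 such markers were DEGs, with 1 without Sham replicate 1 or 2. The part of ganglion tissue in the neuronal values was not tested, and the counts without that library are among those given for each list.

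**Figure D4:**
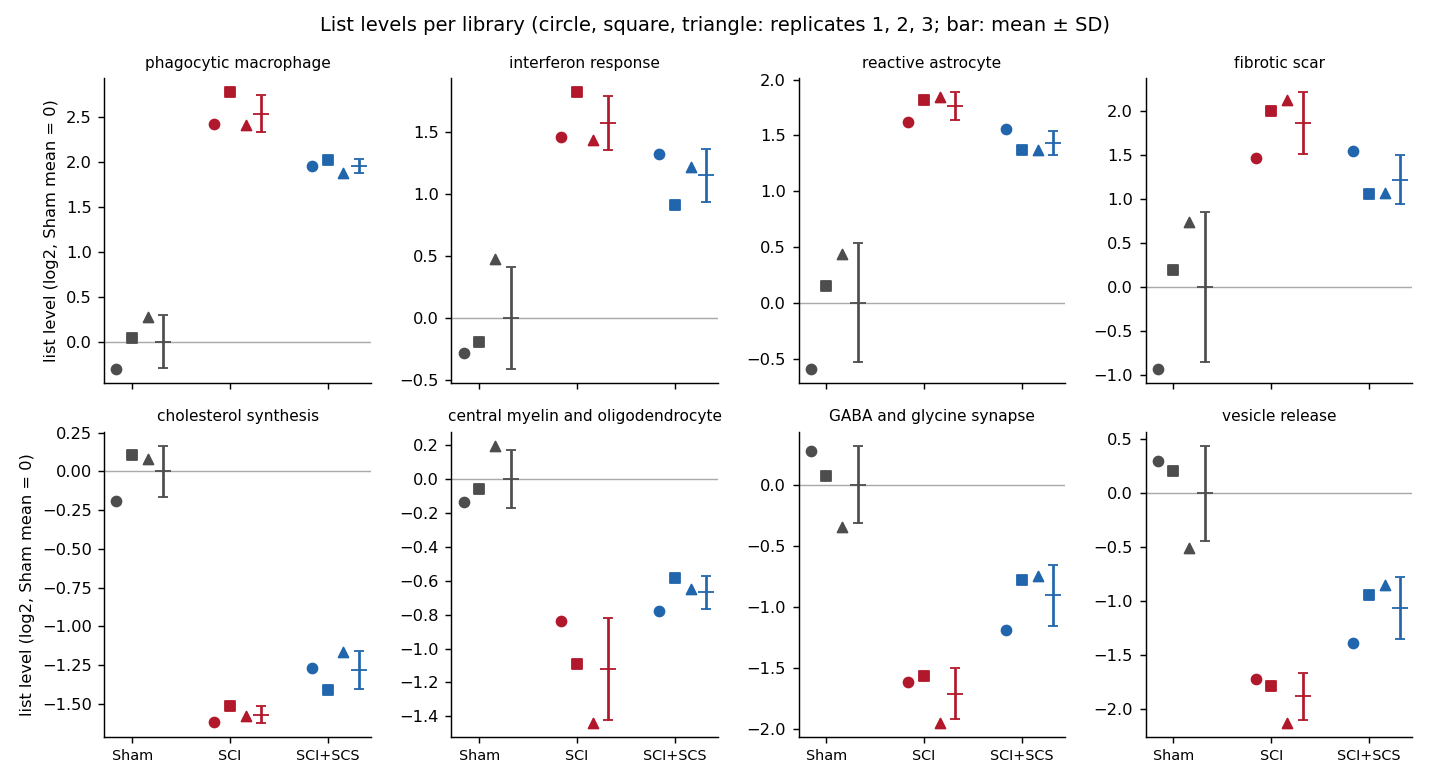
The level of 8 gene lists is drawn for each library, with the 3 groups along the x axis, as the mean over members of log2 CPM with the mean of the Sham group set to 0 (y axis), with a bar for the mean ± SD. The phagocytic macrophage list runs from -0.31 to 0.27 in the Sham libraries to 1.87 to 2.02 in the SCI + SCS libraries, and the cholesterol synthesis list from -0.19 to 0.11 and from -1.41 to -1.16.

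Of the remaining programs, the cell cycle list had 22.45% of its genes upregulated and the list of motile cilia 16.67%, beside 6.28% of all genes tested. Their median log2FC was 0.67 and 0.60, and 36 of the 42 cilia genes had a positive log2FC. The others had few members called in either direction. Cell cycle genes were upregulated in 11 of 49 (4 without Sham replicate 2, 3 without SCI + SCS replicate 1 and 6 without SCI + SCS replicate 3), including Tk1, a thymidine kinase of dividing cells, at 1.3, 1.79 and 1.92 CPM in the Sham libraries and 8.36, 8.23 and 6.27 CPM in the SCI + SCS libraries (log2FC 2.19, SE 0.22, adjusted p = 0.00336). Mki67, the common proliferation marker, had a log2FC of 1.24 (adjusted p = 0.0231), lost without Sham replicate 1 or 2 or SCI + SCS replicate 1 or 3 (log2FC 0.99 to 1.42). Genes of motile cilia, which the ependymal cells of the central canal carry, were upregulated in 7 of 42 (11 without Sham replicate 3), among them the dynein heavy chain Dnah11 (log2FC 1.65, SE 0.21, adjusted p = 0.00506). In the axon regeneration list 4 were upregulated and 2 downregulated of 29, and the upregulated numbered 2 without Sham replicate 2 or SCI + SCS replicate 1, 2 or 3. Atf3, a transcription factor induced in injured neurons, was at 3.29, 4.33 and 6.6 CPM in the Sham libraries and 35.3, 29.8 and 26.9 CPM in the SCI + SCS libraries (log2FC 2.69, SE 0.27, adjusted p = 0.00338). Immediate early genes had 1 upregulated of 26 (0 without Sham replicate 1 or SCI + SCS replicate 1 and 6 without SCI + SCS replicate 3). Fos, whose protein the study stained in the dorsal horn, did not pass (log2FC 0.74, adjusted p = 0.0603). By the study's methods the RNA came from thoracic cord around the injury and the dorsal horn was lumbar, so the Fos value was not set against that staining. Of 40 endothelial and pericyte genes 2 were upregulated (Anpep, an aminopeptidase of pericytes and myeloid cells, and the adhesion molecule Icam1), while the tight junction gene Cldn5 (log2FC 0.29, adjusted p = 0.102) was not. The endothelial count was 1 without Sham replicate 2 or SCI + SCS replicate 1 or 2 and 5 without Sham replicate 3, and the Icam1 call was lost without Sham replicate 2 or SCI + SCS replicate 1 or 2 (log2FC 1.27 to 2.03). Of 49 respiratory chain genes 1 was downregulated (Uqcrc2, of complex III, log2FC -1.09, adjusted p = 0.00315). Of 27 Hox genes, which mark the segment of the cord, 1 was downregulated (Hoxd1), with 0 without Sham replicate 2 or SCI + SCS replicate 1 or 3 and 3 without Sham replicate 3, and Hoxc8 was lower by less than the fold (log2FC -0.55). The Hoxd1 call was lost without Sham replicate 2 or SCI + SCS replicate 1 or 3 (log2FC -1.98 to -1.47). Of 40 skeletal muscle genes 6 were upregulated and 3 downregulated, and the upregulated numbered 3 without Sham replicate 2 and 1 without SCI + SCS replicate 1 or 2. The adipocyte list had 2 of 13 upregulated and 1 downregulated, the oligodendrocyte precursor list 1 and 1 of 17, and the spinal cord identity list 1 and 3 of 17. Upregulated adipocyte genes numbered 1 without Sham replicate 2 or SCI + SCS replicate 1, upregulated precursor genes 0 without Sham replicate 2 and 2 without SCI + SCS replicate 1 and downregulated identity genes 6 without Sham replicate 3.

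Among genes outside or inside the lists, those farthest from the Sham group were mostly silent on one side. Krt6a-ps2, a keratin pseudogene, was at 0 in the Sham libraries and at least 94.5-fold higher (adjusted p = 0.00928). Ly49si4, a member of a multigene family of lectin receptors whose reads may be split among copies, was at least 42.3-fold higher. In the other direction Sertm2, annotated as a long non-coding RNA, was at 1.29, 5.67 and 4.08 CPM in the Sham libraries and 0, 0 and 0 CPM in the SCI + SCS libraries, at least 78.3-fold lower (adjusted p = 0.00813). Olig3, a factor of dorsal progenitors, was at 0.267, 0.204 and 0.16 CPM in the Sham libraries and 0, 0 and 0.0157 CPM in the SCI + SCS libraries, close to the limit of counting. These genes were named by the size of their fold.

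Where the stimulated cords stood between the Sham and SCI groups is given as a description, since the genes were chosen by these values and all comparisons share libraries. Over the 1108 upregulated genes the median log2FC was 1.49 against Sham and -0.40 against SCI, and in the SCI group it was 1.87 against Sham. Over the 960 downregulated genes the medians were -1.31, 0.76 and -2.11. Some genes lay near the level of the SCI group, with the 95% interval of the difference within 1.5-fold. Clec12a, an inhibitory lectin of myeloid cells, was at 3.08, 4.27 and 9.46 CPM in the Sham libraries and 38.6, 41.7 and 41.5 CPM in the SCI + SCS libraries and the SCI libraries held 56.9, 52.1 and 45 CPM. Slc37a2, a sugar phosphate transporter of macrophages, had a log2FC of 2.51 against Sham and 2.62 in the SCI group. Emilin2, a matrix glycoprotein that was downregulated, had -1.29 and -1.33. Mvd, of the cholesterol pathway, had -1.28 and -1.42.

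A few DEGs differed from the SCI group in the same direction as they differed from the Sham group. Gfap and Ifit1, given above, met that rule by their group values, although SCI replicates 2 and 3 lay within the range of the SCI + SCS libraries for Ifit1. Usp53, a ubiquitin-specific protease relative, was at 32.2, 51.5 and 56.6 CPM in the Sham libraries and 90.3, 110.2 and 88.8 CPM in the SCI + SCS libraries and at 69.5, 75.3 and 69.2 CPM in the SCI libraries, and its call was lost without Sham replicate 1 or 2 or SCI + SCS replicate 1 or 2 (log2FC 0.84 to 1.21). Pdzph1 was at 0.236, 0.568 and 0.389 CPM in the Sham libraries and 2.06, 2.03 and 1.54 CPM in the SCI + SCS libraries and at 0.355, 0.213 and 0.578 CPM in the SCI libraries. The Ckmt2 call was lost without Sham replicate 1 or 2 or SCI + SCS replicate 1 or 2 (log2FC -2.44 to -1.61) and the Acta1 call without Sham replicate 2 or SCI + SCS replicate 1, 2 or 3 (log2FC -2.08 to -0.96). Ckmt2 and Acta1, which are muscle genes, were lower than Sham in the SCI + SCS libraries but are high in the SCI libraries that hold muscle, so their position and that tissue cannot be told apart. Other genes changed in the SCI group had a log2FC under 0.5 either way in stimulated cords. Calb1, a calcium buffer of dorsal horn neurons, was at 34.7, 29.9 and 25.6 CPM in the Sham libraries and 21.2, 24.5 and 26.7 CPM in the SCI + SCS libraries and at 14.5, 14.7 and 13.2 CPM in the SCI libraries. Pdyn, the precursor of dynorphin, had a log2FC of -0.18 against Sham and -1.27 in the SCI group, and Vgf, a neuropeptide precursor, -0.31 and -1.52. On the upper side Trpv2, a cation channel of macrophages and sensory neurons, had 0.50 and 1.25, Pld3, a lysosomal nuclease, 0.40 and 1.01, and Cd7, a lymphocyte receptor, 0.41 and 2.54.

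**Figure D5:**
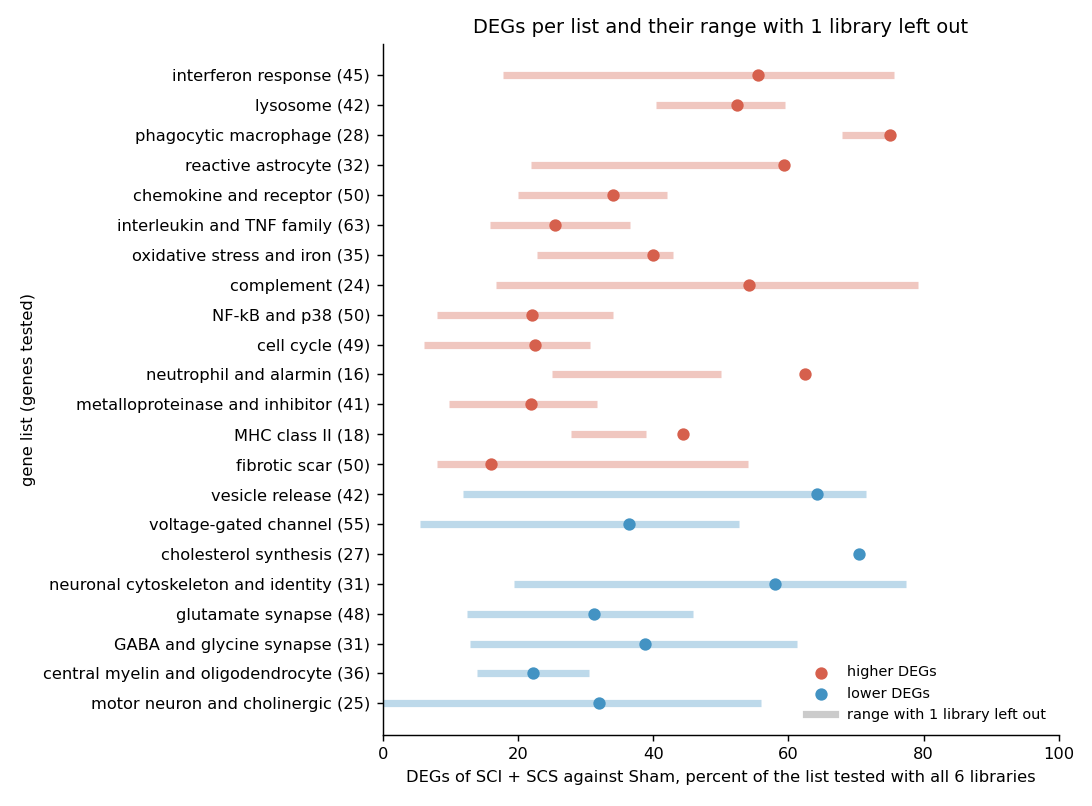
For each list with at least 8 DEGs, the point gives the DEGs of SCI + SCS against Sham as a percentage of tested members and the line the range when 1 of the 6 libraries is left out. The cholesterol synthesis list has no range because its count was 19 each time, and the lists of neurons and synapses have wide ones.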

How the data were processed

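Spinal cord RNA from 3 Sham, 3 SCI and 3 SCI + SCS rats was sequenced. Per the submitters' processing notes, reads were trimmed with fastp 0.23.2 and aligned with HISAT2 2.2.1 to mRatBN7.2, and the counting program is not given in the sources used here. The authors deposited 1 table of 30507 annotated genes, 4340 of them without a symbol, with raw counts and FPKM for each library. Symbols were used as deposited, and 494 identifiers stood on more than 1 line of the table (1081 lines), of which the symbol's line with the highest total was used for a list. Of 1428 list symbols 1349 were found. The lists, the members and the rule for named genes were chosen with earlier results of these data known.

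Counts were tested with edgeR 4.0.16 (R 4.3.3) by the quasi-likelihood test, with TMM scaling, the tool's filter on low counts by group and Benjamini-Hochberg adjustment over all genes tested, on the 6 libraries of the groups compared. A DEG had |log2FC| over 1 and an adjusted p under 0.05. CPM values were TMM-scaled over all 9 libraries, and levels used a prior of 0.5 CPM. The SE was taken from the F statistic. With 3 libraries against 3, a single-gene permutation test cannot go below 0.1. On simulated counts for SCI + SCS against Sham over 17640 genes, edgeR recovered 80% of 200 genes changed 4-fold, with 8 false calls of 168, DESeq2 87.5% with 44 of 219, and limma 78.5% with 7 of 164. For limma, simulated CPM took the place of FPKM. Genes were simulated independently, without shifts shared within a library, so these rates need not hold for the data. Library totals were 62844376 to 88358570 counts, and replicate libraries differed beyond sampling noise.

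Named genes were the 10 most changed DEGs in each direction with a symbol, a single line for their identifier and no overlap of groups, preset members of each list, genes of proteins the study measured, the 2 DEGs of each list with the largest and the 2 with the smallest log2FC, and 5 genes in each direction near, beyond and back from the SCI level. Further list members were named after their values were seen. Of the genes this rule chose, not all are reported here.

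Alternatives were DESeq2 1.42.0, other scaling and filters, all 9 libraries in 1 fit, a test against the fold itself, lines of 1 identifier summed, muscle and adipocyte genes removed, each library left out, a replicate block, and limma 3.58.1 on deposited FPKM (log2 with a pseudocount of 1 or 0.1, mean FPKM of at least 0.1). Same-numbered Sham and SCI + SCS libraries did not deviate together (correlations -0.33, 0.02 and -0.31), so the numbers were not taken as pairs. Promoters came from RefSeq, build GRCr8, with no coordinates carried over from the authors' build.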

Additional observations from a re-analysis of the deposited data

How the results depend on the processing

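The same 19 cholesterol genes were downregulated with any 1 library left out and with the replicate block, and the counts of the phagocytic macrophage and lysosome lists moved by less than 1.5 times with any 1 library left out and with the block. With 1 library left out, SCI + SCS against Sham gave 578 to 1582 upregulated and 372 to 1309 downregulated genes, and SCI + SCS against SCI 0 to 79 and 0 to 71. Ranges of upregulated genes were complement 4 to 19, interferon 8 to 34, MHC class II 5 to 7, neutrophil 4 to 8, chemokine 10 to 21, interleukin 10 to 23, NF-kB 4 to 17, oxidative stress 8 to 15, reactive astrocyte 7 to 19, fibrotic scar 4 to 27, metalloproteinase 4 to 13 and cell cycle 3 to 15. Ranges of downregulated genes were central myelin 5 to 11, neuronal cytoskeleton 6 to 24, motor neuron 0 to 14, GABA and glycine 4 to 19, glutamate 6 to 22, vesicle release 5 to 30 and voltage-gated channel 3 to 29. Medians ranged from 1.85 to 2.90 for neutrophil, 0.95 to 1.43 for chemokine, -1.10 to -0.61 for glutamate, -0.0226 to 0.16 for axon regeneration and -3.31 to 0.49 for sensory ganglion genes, the last being positive without Sham replicate 2.

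Replicate numbers did not pair the libraries. A replicate block gave 440 upregulated and 275 downregulated genes, so that 61.5% of calls were upward against 53.6% without it, and 0 upregulated genes in SCI + SCS against SCI. With the block, upregulated genes numbered complement 4, interferon 12, MHC class II 4, neutrophil 2 (median 2.33), chemokine 5, interleukin 4, NF-kB 3, reactive astrocyte 6, fibrotic scar 4, metalloproteinase 2 and cell cycle 1, and downregulated genes neuronal cytoskeleton 2, motor neuron 0, GABA and glycine 1, glutamate 3, vesicle release 1 and channel 1. The block leaves fewer residual degrees of freedom.

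DESeq2 called 15 fibrotic scar and 14 motor neuron genes and, in SCI + SCS against SCI, 418 and 353. A minimum of 10 counts in every library moved the chemokine median to 0.76 and, for axon regeneration, median log2FC to -0.0387, and removing muscle and adipocyte genes moved the latter to -0.045. The test against the fold itself left 78 upregulated and 18 downregulated genes (81.2% upward), and limma on log2(FPKM + 1) gave 620 and 301 (67.3% upward), or 562 and 281 without the filter (66.7% upward). The cause of these shifts was not tested. With 3 libraries a group, a difference that did not pass is not shown to be absent.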
